A study of Homo sapiens with 8 samples.

Results

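MALAT1, NEAT1, TUG1, NORAD (also named LINC00657), KCNQ1OT1, MEG3, H19 and MIAT are 8 long noncoding RNAs. The group is named for abundant nuclear RNAs and RNAs of imprinted domains, although NORAD acts mostly in the cytoplasm and not all were abundant here. The 8 were followed in H1, an established line of human embryonic stem cells, after silencing of EXOSC3, a core subunit of the RNA exosome. Their entries were found by RefSeq accession and summed per gene, which gave 27 of the 49235 transcripts and 8 of the 25868 named genes. Of the 8 genes, 6 had a mean of at least 1 FPKM (fragments per kilobase of transcript, scaled to the depth of the library), and MEG3 and H19 lay below it.

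The lines carried a doxycycline-inducible hairpin RNA, shEXOSC3 against EXOSC3 or the non-silencing shNS. Each line was kept with doxycycline or without it and harvested on day 7 or day 5, so there were 8 groups of 1 library each. All groups grew feeder-free in a defined medium with basic fibroblast growth factor and puromycin. The labels give no clone number for either line. RNA was total RNA from which ribosomal RNA had been removed, so transcripts without a poly(A) tail were kept. Per table, 1 doxycycline library stood beside its untreated partner, so there were no replicates to check a difference against, and no p-value was computed. A gene was counted as past 2-fold when log2((FPKM + 1) with doxycycline/(FPKM + 1) without) reached 1 in size. On this scale RNAs near or under 1 FPKM move less than their FPKM do.

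The RNA exosome trims and degrades RNA from its 3′ end, in the nucleus and in the cytoplasm, and its nuclear targets include many short-lived noncoding transcripts. MALAT1 and NEAT1 are neighbours that mark nuclear speckles and paraspeckles. NORAD acts mostly in the cytoplasm, where it binds Pumilio proteins, repressors of messenger RNAs. KCNQ1OT1, H19 and MEG3 are each made from 1 parental copy of their imprinted domain.

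Silencing was partial. EXOSC3 stood at 48.9% (day 7) and 45.0% (day 5) of its untreated level in shEXOSC3, and at 90.6% and 102% in shNS. The embryonic stem cell markers POU5F1 (139 to 171 FPKM), NANOG (18.8 to 32.6 FPKM) and SOX2 (172 to 262 FPKM) were present in all 8 libraries, and all 12 markers of that list reached 1 FPKM there. Stromal markers reached 1 FPKM for 3 to 5 of 8 genes, with DCN and LUM at 0 everywhere, neural markers for 2 to 3 of 8, endoderm and mesoderm markers for 0 to 1 of 9, and trophoblast markers for 1 of 8. Effective depth, read from the value of 1 fragment in genes with 1 exon, was 14.6 to 37.0 (in units of 1000000 fragments). The doxycycline library was close in depth to its untreated partner in shEXOSC3 (0.922-fold on day 7 and 1.01-fold on day 5) and deeper in shNS (1.33-fold and 1.59-fold). The days stood apart in their leading RNAs, with 6.21% to 7.16% of the summed FPKM in the top 3 transcripts on day 7 and 23.8% to 27.6% on day 5.

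The 8 RNAs ranged from MALAT1, with more FPKM than 95.3% to 98.3% of all genes, to MEG3, with 0 to 4 fragments in a library. MALAT1 was the highest of them in 7 libraries. The exception was the doxycycline library of shNS on day 5, in which NORAD at 77.1 FPKM stood above MALAT1 at 74.0 FPKM. TUG1 followed both in 7 libraries, and stood between them in the shEXOSC3 doxycycline library of day 7, from a failed estimate. MIAT came next in all 8, MEG3 was last in all 8, and NEAT1, KCNQ1OT1 and H19 lay between these. On day 5, NEAT1 at 0.505 to 1.11 FPKM and KCNQ1OT1 at 0.490 to 0.817 FPKM did not separate from H19 at 0.290 to 0.957 FPKM.

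**Figure D1:**
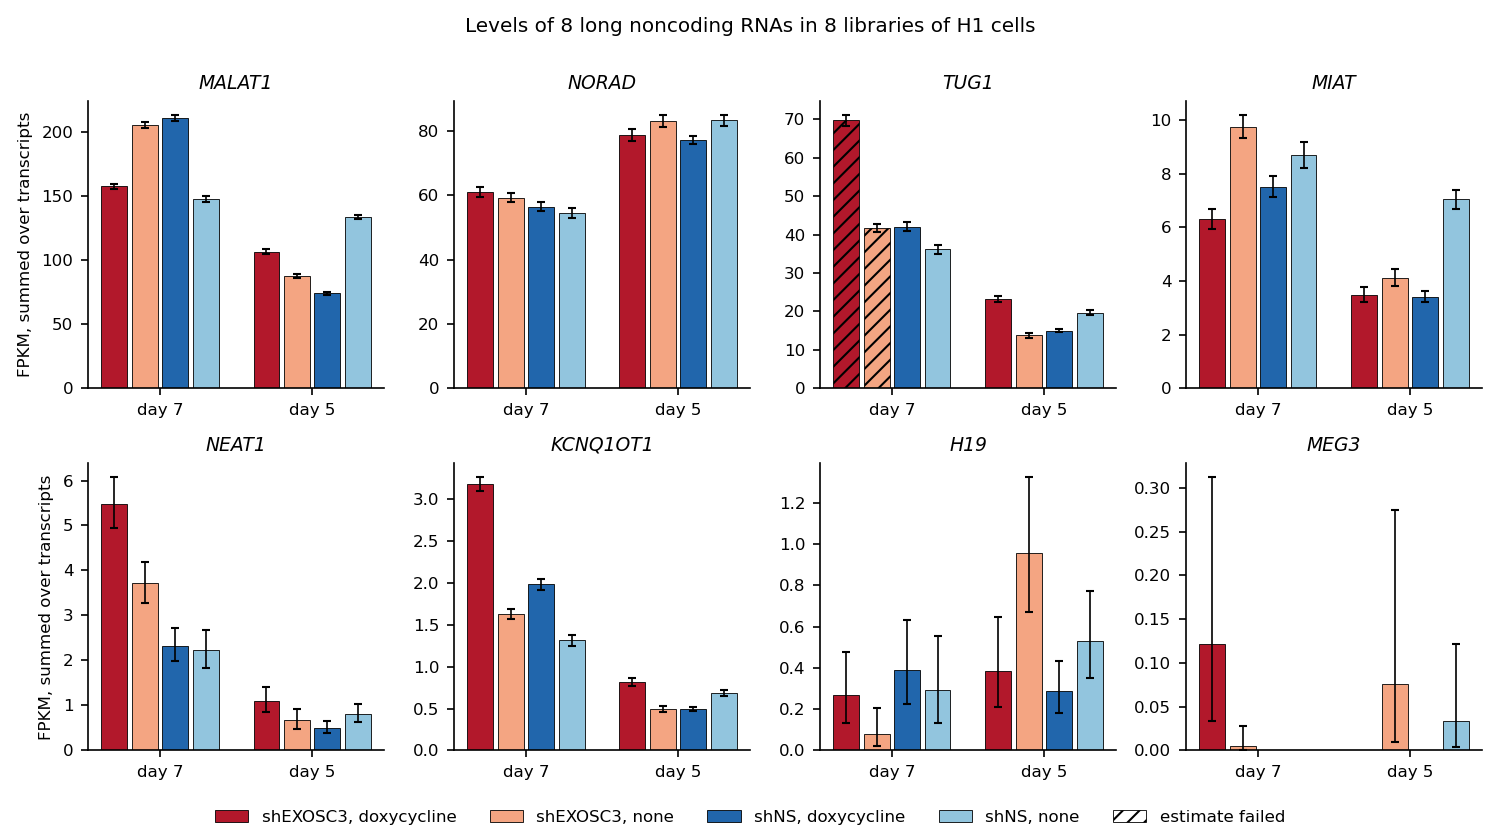
Bars give the FPKM of each RNA in each of the 8 libraries, summed over its transcripts and drawn from 0, with day 7 left of day 5 and doxycycline left of none. Error bars are exact 95% Poisson intervals of the fragment number and cover counting error only. NORAD varies least, from 54.5 to 83.3 FPKM, and hatching marks the failed TUG1 estimates.

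NORAD is an RNA of 1 exon (NR_027451, hg19 chromosome 20, 34633540 to 34638882, 5343 bases) that had little relation to doxycycline in either line. It had 61.1 FPKM with doxycycline and 59.3 without in shEXOSC3 on day 7, and 78.7 with and 83.1 without on day 5. In shNS it had 56.5 with and 54.5 without on day 7, and 77.1 with and 83.3 without on day 5. Libraries of 1 day differed little, by log2 ratios of 0.04, -0.08, 0.05 and -0.11 in the order just given, against counting errors (SE) of 0.03, 0.02, 0.03 and 0.02. Rescaling every library to the same FPKM total moved the shEXOSC3 ratio of day 5 to 0.06, so no direction is given. The adjusted difference, the log2 ratio of shNS taken from that of shEXOSC3, was -0.01 on day 7 and 0.03 on day 5.

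NORAD is shown by the sites for which it is known. Pumilio proteins bind TGTANATA, and the GENCODE 29 transcript of NORAD (GRCh38, chromosome 20, 5339 bases) held 15 matches on its own strand, where N is any base. They had 3 spellings, TGTATATA in 10, TGTAAATA in 4 and TGTACATA in 1. Among 416 GENCODE lncRNA transcripts of 4000 to 7000 bases, 35.1% held at least 1 match, and 3, NORAD among them, held 15 or more. TUG1 held 2 matches in 7469 bases, KCNQ1OT1 held 9 in 91667, and the MALAT1, NEAT1, H19 and MIAT transcripts read held 0. Capitals mark the match in 4 sites, each with 8 bases on either side, numbered from the 5′ end of the transcript.
NORAD site 1: aaggcctgTGTATATAatatgaaa
NORAD site 5: gtatatagTGTACATAaaggacag
NORAD site 11: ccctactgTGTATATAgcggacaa
NORAD site 15: agcctattTGTAAATAcctttgtt
Site 5 is the only one spelled with C at the free position.

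PUM2, which encodes a Pumilio protein, had 24.3 FPKM with doxycycline and 22.7 without in shEXOSC3 on day 7, and 27.6 and 28.2 on day 5. In shNS it had 24.6 and 20.8 on day 7, and 23.1 and 29.8 on day 5. Over 9 genes in a list of NORAD partners, 0 were past 2-fold in the adjusted difference, where 3.91% of all genes were on day 7 and 2.42% on day 5. Above 0 were 2 of 9 on day 7 and 6 of 9 on day 5, against 48.0% of all genes.

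MALAT1 (NR_002819, hg19 chromosome 11, 65265233 to 65273939, 1 exon) organises splicing factors in nuclear speckles, and its doxycycline ratio had opposite directions in the lines on each day. In shEXOSC3 it had 158 FPKM with doxycycline and 205 without on day 7, and 107 with and 87.7 without on day 5. In shNS it had 211 with and 148 without on day 7, and 74.0 with and 134 without on day 5. Within each line the direction also differed between days. These values rest on 12899 to 36025 fragments in a library, so the counting error of each log2 ratio was at most 0.02.

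On the log2 scale the MALAT1 ratios were -0.38 in shEXOSC3 and 0.51 in shNS on day 7, and 0.28 in shEXOSC3 and -0.84 in shNS on day 5. The adjusted difference was -0.89 on day 7, with 1.92% of genes below it, and 1.12 on day 5, with 98.7% of genes below it. On both days the ratio in shNS, where EXOSC3 was at 90.6% and 102%, was the larger of the pair. Set directly against each other, the doxycycline libraries of shEXOSC3 and shNS differed by -0.42 on day 7 and 0.52 on day 5, across tables that were normalized separately. The authors' deposited table for shNS on day 5 lists MALAT1 with a p-value of 0.0007 and a q-value of 0.307, from 1 library against 1.

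The MALAT1 ratio to NORAD in the same library does not depend on how a library was scaled. It was 2.58 with doxycycline and 3.46 without in shEXOSC3 on day 7, and 3.73 and 2.71 in shNS. On day 5 it was 1.36 and 1.06 in shEXOSC3, and 0.959 and 1.60 in shNS. The same pattern of opposite directions was present in it. Depth differed most in the pair with the largest MALAT1 ratio, at 37.0 with doxycycline and 23.2 without in shNS on day 5, in the same units, and its part in the result was not tested.

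The 3′ end of MALAT1 is shown because it is made without a poly(A) tail. The transcript is cleaved by RNase P, which releases a small tRNA-like RNA named mascRNA, and its new end is closed by a triple helix of U-rich and A-rich stretches in place of a poly(A) tail. Capitals mark the 58 bases that RefSeq annotates as mascRNA, which start at base 8356 of 8708 in the GENCODE 29 transcript, and the 90 bases before it hold its longest run of A, of 13 bases (GRCh38 chr11:65506027-65506174, plus strand).
MALAT1 3′ end: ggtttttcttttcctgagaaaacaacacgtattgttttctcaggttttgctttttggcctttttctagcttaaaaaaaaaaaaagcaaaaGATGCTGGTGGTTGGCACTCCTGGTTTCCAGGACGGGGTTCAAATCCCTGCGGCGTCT
METTL16, a methyltransferase that binds this triple helix, had adjusted differences of 0.05 on day 7 and 0.20 on day 5.

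TUG1 (hg19 chromosome 22, 31365197 to 31375380), a spliced RNA with nuclear and cytoplasmic copies, is entered as NR_002323, NR_110492 and NR_110493. Summed over them, shEXOSC3 had 23.3 FPKM with doxycycline and 13.8 without on day 5, and shNS had 15.0 with and 19.7 without. On day 7 shNS had 42.1 with and 36.2 without. All 3 estimates were marked failed in the shEXOSC3 table of day 7, where the listed values sum to 69.7 with and 41.7 without, and TUG1 was left out of that comparison. TUG1 was higher with doxycycline in shEXOSC3 on day 5 (log2 ratio 0.71) and lower in shNS (-0.37), and the adjusted difference of 1.08 was past 2-fold. It was 0.89 with a pseudocount of 5 FPKM, and the doxycycline libraries of the lines set directly against each other differed by 0.60, neither of them past 2-fold. With the listed values of the failed estimates, the adjusted difference of day 7 would be 0.51.

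Those sums hide a division among transcripts that differed from library to library. In shNS on day 5, NR_110493 had 5.59 FPKM with doxycycline and 15.5 without, while NR_002323 had 4.41 with and 0.0025 without. On day 7 the split ran the other way, with NR_110493 at 22.6 with and 4.33 without and NR_002323 at 9.30 with and 24.9 without. In the authors' deposited table for shNS on day 5, NR_110493 shares the smallest p-value, 5e-05, with a q-value of 0.0683. The longest GENCODE 29 transcript linked to each is 7469 bases long, and it may be the same transcript for both. If NR_002323, the highest of the 3 by its mean, stood for TUG1 alone, the adjusted difference of day 5 would be -1.56, the opposite sign.

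MIAT (hg19 chromosome 22, 27053446 to 27176856), a nuclear RNA named for its link to myocardial infarction, was lower with doxycycline in all 4 tables when summed over its transcripts. It had 6.30 FPKM with doxycycline and 9.74 without in shEXOSC3 on day 7, and 3.48 and 4.11 on day 5. The shNS line had 7.51 and 8.68 FPKM on day 7, and 3.42 and 7.03 on day 5. On day 7 the log2 ratio was -0.56 in shEXOSC3 and -0.19 in shNS, and on day 5 it was -0.19 and -0.86, so the larger ratio belonged to a different line on each day. Its adjusted differences were -0.37 on day 7 and 0.67 on day 5. In plain FPKM the shNS ratio of day 5 was 0.486-fold, past 2-fold, and with a pseudocount of 0.1 FPKM its log2 ratio was -1.02. With a pseudocount of 5 FPKM that log2 ratio was -0.52. By the transcript with the highest mean, which held little of the gene on day 5, it was -0.00099.

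The leading MIAT entry was not the same on the 2 days. NR_033321 held 51.1% to 92.7% of the gene on day 7, and at most 0.0803% on day 5. NR_033320 held 70.5% to 84.4% on day 5, and on day 7 it held 0% with doxycycline and 7.28% without in shEXOSC3, and 39.3% and 38.4% in shNS. The fit that divides shared fragments among transcripts was made for each table, and its part in this was not tested.

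**Figure D2:**
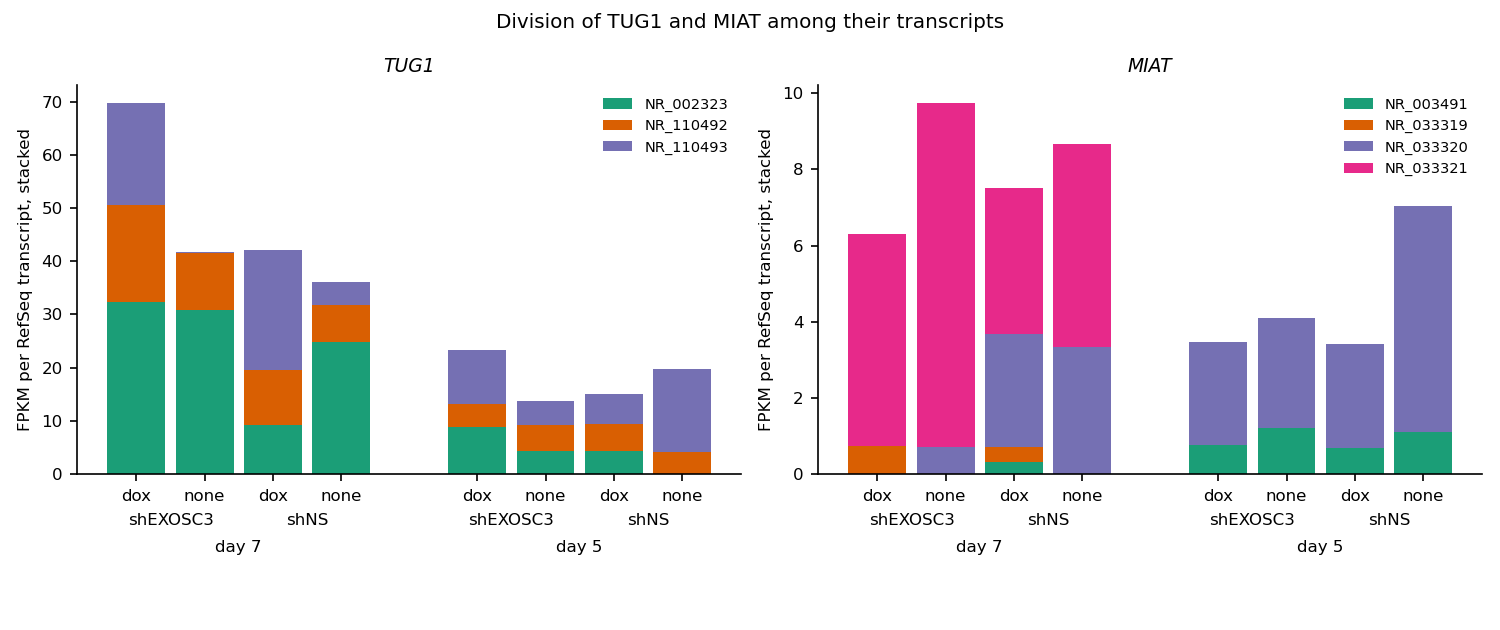
Stacked bars give the FPKM of each RefSeq transcript of TUG1 (left) and MIAT (right) in the 8 libraries, day 7 left of day 5 and doxycycline left of none. For TUG1 in shNS on day 5 the sum moves less than its division, with NR_110493 at 5.59 FPKM with doxycycline and 15.5 without. For MIAT in the same pair the sum moves more, from 7.03 FPKM without to 3.42 with, and NR_033320 holds 84.4% and 79.7%.

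NEAT1 (hg19 chromosome 11, 65190269 to 65194003, 3735 bases), the architectural RNA of paraspeckles, is entered only as its short form, NR_028272, whose sequence is also the start of the long form. It had 5.49 FPKM with doxycycline and 3.72 without in shEXOSC3 on day 7, and 1.11 and 0.671 on day 5. In shNS it had 2.33 and 2.23 on day 7, and 0.505 and 0.804 on day 5. NEAT1 was higher with doxycycline in shEXOSC3 on both days, with log2 ratios of 0.46 (SE 0.09) and 0.33 (SE 0.13). In shNS they were 0.04 (SE 0.12) on day 7 and -0.26 (SE 0.10) on day 5. Adjusted differences were 0.42 on day 7 and 0.59 on day 5, higher than in 90.2% and 95.3% of genes.

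Few fragments lay behind NEAT1 on day 5. At nearly equal depth there were 68 with doxycycline and 41 without in shEXOSC3, with 95% intervals of 52.8 to 86.2 and 29.4 to 55.6 that overlap. In shNS both libraries held 66, at depths of 37.0 with doxycycline and 23.2 without, so the same number was a smaller share of the deeper library. On day 7 there were 369 and 271 in shEXOSC3, with intervals of 332 to 409 and 240 to 305, and 160 and 115 in shNS.

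Of 22 paraspeckle proteins measured as RNA, 0 were past 2-fold in the adjusted difference on either day, where 3.91% of all genes were on day 7 and 2.42% on day 5. Above 0 were 6 of 22 on day 7 and 10 of 22 on day 5, against 48.0% of all genes on each day, and 10 were below 0 on both days, against 28.8% of all genes. By the mean of both days the highest was TARDBP (TDP-43), at 0.21 on day 7 and 0.93 on day 5, and the lowest was PSPC1, a core paraspeckle protein, at -0.30 and -0.27.

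KCNQ1OT1, a long unspliced RNA that silences neighbouring genes on the paternal chromosome, was higher with doxycycline in 3 of 4 tables. It had 3.18 FPKM with doxycycline and 1.63 without in shEXOSC3 on day 7, and 0.817 and 0.490 on day 5. The values in shNS were 1.98 and 1.31 on day 7, and 0.491 and 0.687 on day 5. At 91667 bases it drew 776 to 5532 fragments in a library in spite of its low FPKM. The log2 ratios were 0.67 in shEXOSC3 and 0.37 in shNS on day 7, and 0.29 and -0.18 on day 5, which gave adjusted differences of 0.30 and 0.46. As plain FPKM ratios they were 1.95-fold in shEXOSC3 and 1.51-fold in shNS on day 7, and 1.67-fold and 0.715-fold on day 5. The authors' deposited table lists a p-value of 0.001 and a q-value of 0.44 for it in shEXOSC3 on day 7.

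KCNQ1OT1 runs antisense through KCNQ1, a potassium channel gene, and both are listed under 1 locus (hg19 chromosome 11, 2466221 to 2882799). The strand used in counting is not stated, so fragments of the pair cannot be told apart by it. KCNQ1 had 0.169 FPKM with doxycycline and 0.121 without in shEXOSC3 on day 7, and 0.833 and 0.493 on day 5. In shNS it had 0.0845 and 0.124 on day 7, and 0.475 and 0.605 on day 5. On day 5 the pair thus ran side by side in level and in ratio, at 169% of the untreated level for KCNQ1 and 167% for KCNQ1OT1 in shEXOSC3. On day 7 KCNQ1 was far below KCNQ1OT1.

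H19 (NR_002196, hg19 chromosome 11, 2016406 to 2019065), a growth-restraining RNA of the maternal chromosome and host of miR-675, was near the limit of detection. It had 11 fragments (0.267 FPKM) with doxycycline and 4 (0.0798 FPKM) without in shEXOSC3 on day 7, and 14 (0.385 FPKM) and 36 (0.957 FPKM) on day 5. In shNS it had 16 and 9 on day 7, and 23 and 27 on day 5. Scaled to depth, the 95% intervals of each pair overlapped in 3 tables and came apart only in shEXOSC3 on day 5, at 7.65 to 23.5 with doxycycline and 25.2 to 49.8 without. IGF2, which shares its imprinting control with H19, was also below 1 FPKM in all 8 libraries.

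MEG3 (hg19 chromosome 14, 101292445 to 101327360), the maternal RNA of the DLK1 domain, is entered as 15 transcripts. Their sum held 4 fragments with doxycycline and 1 without in shEXOSC3 on day 7, 0 and 2 on day 5, 0 and 0 in shNS on day 7, and 0 and 2 on day 5. In the 4 libraries at 0, a count of 0 allows up to 0.0546 to 0.138 FPKM, the worth of 3 fragments. MEG8, MEG9, RTL1 and DLK1 of the same domain were below 1 FPKM in all 8 libraries as well. No difference in MEG3 or H19 was read from these values beyond the intervals given.

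Across the doxycycline ratios of single tables, 0 of the 8 RNAs were past 2-fold with the pseudocount of 1 FPKM. Of the RNAs above 1 FPKM, MIAT was past it in plain FPKM in shNS on day 5, at 0.486-fold. On day 7 the count by the rule was 0 of 5 measured in shEXOSC3 and 0 of 6 in shNS, where 2.9% and 2.01% of all genes were. On day 5 it was 0 of 6 in each line, where 1.99% and 1.3% of all genes were. The members' median ratio was 0.04 in shEXOSC3 and 0.13 in shNS on day 7, and 0.28 and -0.31 on day 5, against medians of all genes between 0.00 and 0.01 in size.

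**Figure D3:**
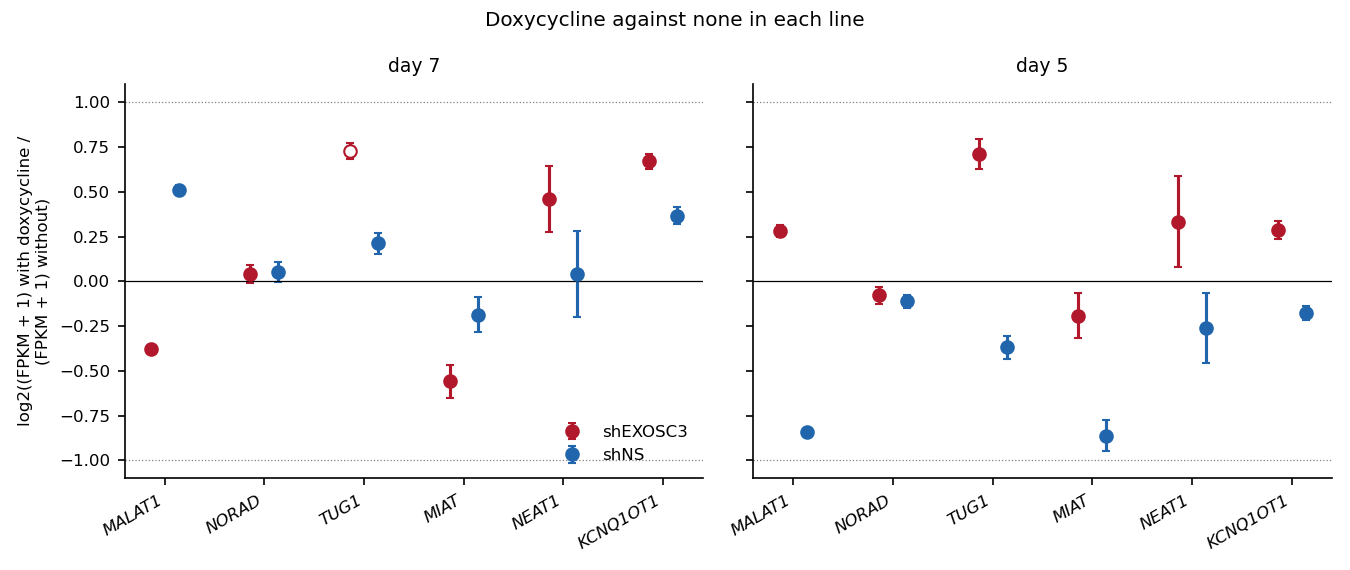
Points give log2((FPKM + 1) with doxycycline/(FPKM + 1) without) of the 6 RNAs above 1 FPKM, shEXOSC3 left of shNS, with 95% intervals from counting error only. Dotted lines mark 2-fold, which no point reaches, and the open point is the failed TUG1 estimate. On day 5 all 6 shEXOSC3 points lie above their shNS partners, that of NORAD by only 0.03.

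In the adjusted difference, MALAT1 and TUG1 were past 2-fold on day 5, which is 2 of 6, where 2.42% of all genes were past it in either direction and 1.5% in the higher one. The count was 0 of 6 when the doxycycline libraries of the lines were set directly against each other, at 0.52 for MALAT1 and 0.60 for TUG1, and 1 of 6 with a pseudocount of 5 FPKM. All 6 were above 0 on day 5, as were 48.0% of all genes, with a median of 0.63 against 0.00. NORAD was so only at 0.03, and MIAT was at 0.02 between the doxycycline libraries. On day 7, 0 of 5 were past 2-fold, where 3.91% of all genes were, and 2 of 5 were above 0, against 48.0% of all genes. NEAT1 and KCNQ1OT1 were above 0 on both days, as were 26.0% of all genes measured on both. The 6 RNAs share the 4 libraries of a day, and in shNS on day 5 all 6 were lower with doxycycline than without, as were 45.9% of all genes.

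Stromal markers stood higher with doxycycline in shEXOSC3 on day 5, when 4 of 8 reached 1 FPKM with it and 3 of 8 without, and 3 of 8 in both shNS libraries. Their summed level was 135 FPKM with doxycycline and 98.7 without in shEXOSC3, and 106 and 97.3 in shNS, with DCN and LUM at 0. COL1A1, a collagen gene of this list named with its value seen, had an adjusted difference of 1.25 on day 5 and -0.07 on day 7. On day 5, 1.5% of all genes were past 2-fold higher. Other lists moved in the shEXOSC3 pair of day 5. Neural markers summed to 208 FPKM with doxycycline and 176 without, against 176 and 167 in shNS, and trophoblast markers to 9.02 and 7.75, against 9.31 and 8.61 in shNS. Endoderm and mesoderm markers summed to 2.22 and 1.84, against 2.98 and 2.63 in shNS, and stem cell markers to 2279 and 2874, against 2448 and 2779 in shNS. The part of these lists in the result was not tested. In bulk RNA, fewer cells of a type and less RNA per cell cannot be told apart.

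**Figure D4:**
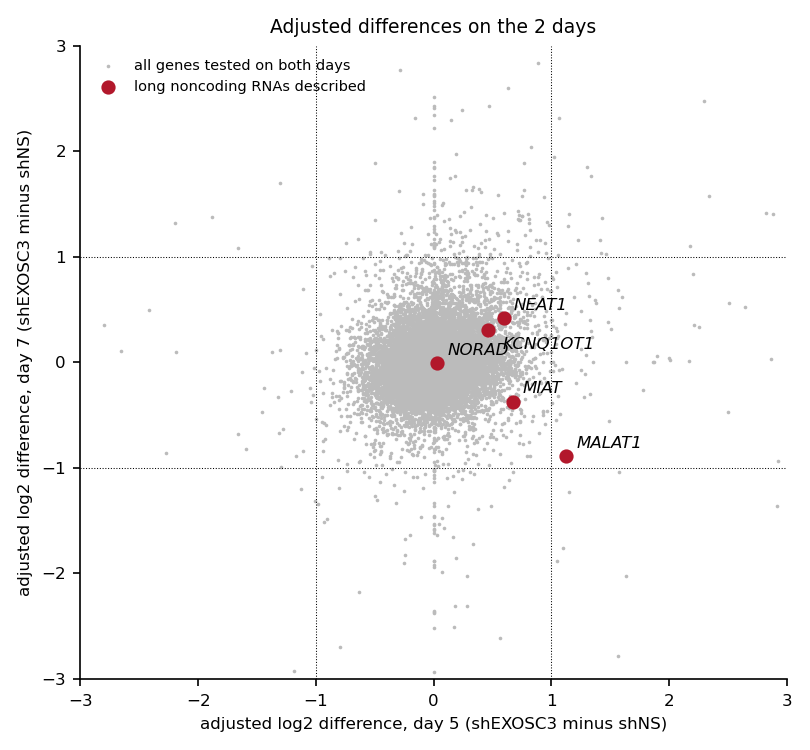
Each grey point is a gene measured on both days, placed by its adjusted log2 difference (shEXOSC3 minus shNS) on day 5 and day 7, with 368 of them beyond the axes. MALAT1 lies at 1.12 and -0.89, NORAD near the origin, and NEAT1 and KCNQ1OT1 above 0 on both axes. TUG1 has no day 7 value and is not drawn.

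Set across tables, MALAT1, MIAT, NEAT1 and KCNQ1OT1 stood higher on day 7 than on day 5 in each line and treatment. TUG1 did so in shNS, and in shEXOSC3 only by the failed estimates of day 7. The share of all genes higher in every pairing was not counted. It is at least the 27.2% of genes whose day 7 libraries all stood above all day 5 libraries. NEAT1 had 2.23 to 5.49 FPKM on day 7 and 0.505 to 1.11 on day 5, and its 4 ratios lay between 2.78-fold and 5.54-fold. KCNQ1OT1 had 1.31 to 3.18 FPKM on day 7 and 0.490 to 0.817 on day 5, at 1.91-fold to 4.04-fold. MALAT1 had 148 to 211 FPKM on day 7 and 74.0 to 134 on day 5, at 1.11-fold to 2.85-fold. NORAD went the other way, with 54.5 to 61.1 FPKM on day 7 and 77.1 to 83.3 on day 5, at 0.654-fold to 0.777-fold.

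The libraries of the days did not overlap for MALAT1, NEAT1 and KCNQ1OT1, higher on day 7, which is 3 of 5 measured in all tables and compares with 27.2% of all genes. NORAD was the 1 of 5 with all day 7 libraries lower, as were 37.1% of all genes. MIAT overlapped, at 6.30 to 9.74 FPKM on day 7 and 3.42 to 7.03 on day 5. Relative to NORAD in the same library, 4 of 4 were higher on day 7 without overlap, but so were 45.2% of all genes.

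By the 2-fold rule, day 7 over day 5, 2 of 5 RNAs were past it in shEXOSC3 with doxycycline and 3 of 5 without, where 22.6% and 23.2% of all genes were. In shNS it was 4 of 6 with doxycycline and 0 of 6 without, where 22.7% and 20.0% of all genes were. The tables of the days were normalized separately and the days differ in the share of the most abundant transcripts. Day, table and library preparation cannot be told apart here. Without those 3 transcripts in the total, MALAT1 in untreated shNS would be at -0.05 on the log2 scale instead of 0.14, and NORAD at -0.61 to -0.80 instead of -0.36 to -0.60.

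**Figure D5:**
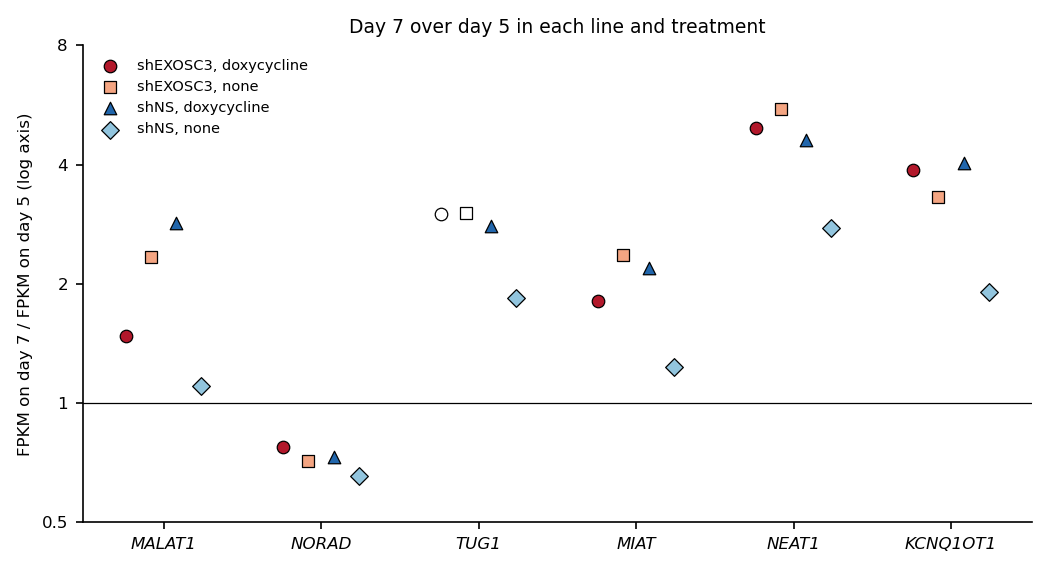
Points give FPKM on day 7 over FPKM on day 5, on a log axis, of the 6 RNAs above 1 FPKM for each line with doxycycline or none. NEAT1 lies highest at 2.78 to 5.54, NORAD is the only one of the 6 RNAs drawn that lies below 1, and the open TUG1 points rest on the failed estimates of day 7.

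Few genes tied to these RNAs by place or function were past 2-fold in the adjusted difference, as few of all genes were, at 3.91% on day 7 and 2.42% on day 5. Of 23 neighbours at the imprinted domains found in the tables, 5 could be measured on both days, and 0 were past 2-fold in the adjusted difference on either day. They included CDKN1C, a growth inhibitor in the KCNQ1OT1 domain, at -0.73 on day 7 and 0.11 on day 5, and PHLDA2, a placental growth regulator there, at -0.21 and 0.83. Of 15 other imprinted genes, 0 were past 2-fold on day 5 and 1 on day 7. That gene was BLCAP, at 1.12 on day 7 and -0.02 on day 5, named after its value was seen, where 2.21% of all genes were past 2-fold higher. The ends of the list were GNAS-AS1, an antisense RNA of the GNAS domain, at 0.67 and 0.99, and SNURF, at -0.40 and -0.73.

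Of 20 nuclear speckle and MALAT1 processing proteins, 0 were past 2-fold on day 7 and 1 on day 5, where 3.91% and 2.42% of all genes were. Above 0 were 6 of 20 on day 7 and 11 of 20 on day 5, against 48.0% of all genes on each day. The gene past 2-fold was NXF1, the messenger RNA export receptor, at -0.02 on day 7 and 1.03 on day 5, also named after its value was seen. PRPF8, the core protein of the spliceosome, was at 0.36 on day 7 and 0.80 on day 5. RNASEH2A, at -0.27 and -0.34, is a subunit of ribonuclease H and not of the RNase P that cleaves MALAT1. The ends of the Pumilio list were ZC3H4, at 0.06 and 0.64, and CDC5L, at -0.25 and -0.27. Of 11 genes next to MALAT1, NEAT1, TUG1, NORAD and MIAT, 0 were past 2-fold on either day. FAM89B, near NEAT1 and MALAT1, was at 0.85 on day 7 and -0.04 on day 5, and TFIP11, near MIAT, at -0.09 and -0.22.

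Other widely studied long noncoding RNAs gave a comparison outside the 8. Of 17 measured on both days, 10 were above 0 on day 7 and 10 on day 5, against 48.0% of all genes on each day, with medians of 0.03 and 0.15. CYTOR was the 1 of 17 past 2-fold on day 7, where 3.91% of all genes were, at 1.22, and at -0.05 on day 5, and PANDAR, at the CDKN1A locus, was at -0.20 and -0.46. On day 5 the 6 members had a median of 0.63 and these 17 a median of 0.15. The difference was not tested, since the members were chosen with results known.

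With the pseudocount of 1 FPKM, none of the RNAs reached 2-fold in a single table, the condition for naming its closest genes. Those of MALAT1 are given with its values seen. Over 4 ratios and 13075 genes, the closest were THOC7-AS1, SEMA6A-AS1 and LOC101929551, at root mean square differences of 0.17, 0.18 and 0.18 on the log2 scale. All 3 were lower with doxycycline in shNS on day 5, by -0.71, -0.68 and -0.56, and higher there on day 7. They were picked for ratios like those of MALAT1, so these shared directions follow from the choice and add no support.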

How the data were processed

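Total RNA of 8 libraries was depleted of ribosomal RNA and made into ScriptSeq libraries, per the labels. CASAVA 1.8, TopHat and Cufflinks were used with hg19, per the submitters' processing notes. No source used here states the other versions, the annotation release, the normalization or the counting strand. Per the file headers, the 4 deposited tables hold FPKM per RefSeq transcript, with the authors' p-value and q-value for 1 library against 1; 0 transcripts were marked significant by the authors. Starts in the tables count from 0 and were raised by 1.

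Symbols came from RefSeq for 48147 accessions and GENCODE 29 for 633, and 455 had none. FPKM were summed per gene, and 13252 genes had a mean of at least 1 FPKM. Those with a failed estimate in a table were left out of it, which left 13232 to 13242 genes in a table. Ratios used a pseudocount of 1 FPKM. The members and lists were chosen with earlier results of these data known. Named genes were the members, their transcripts of at least 1 FPKM, both ends of each list by the mean of the adjusted differences, POU5F1, NANOG and SOX2, and 3 genes closest to any member past 2-fold in a table. PUM2, METTL16, KCNQ1, IGF2, DLK1, MEG8, MEG9, RTL1, COL1A1, BLCAP and NXF1 lie outside this rule and were named with their values seen.

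Depth came from olfactory receptor genes of 1 exon, where 1 fragment gives a fixed value for each length. Of 323 such genes, the 16 to 30 in a library that were judged to hold 1 fragment were used. MALAT1, NORAD and NEAT1 then came out as whole fragments, within 0.2, in 8 of 8 libraries. H19 and KCNQ1OT1 did not in every library, with 14.4 and 1301.4 in shEXOSC3 with doxycycline on day 5, so their fragment numbers are approximate. Fragment numbers of genes with several transcripts, and all intervals, cover counting error only. No count test was run, since each group has 1 library. Python 3.11.15, pandas 2.3.3, numpy 2.4.6 and matplotlib 3.10.9 were used.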

Additional observations from a re-analysis of the deposited data

How the results depend on the processing

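No paired analysis was possible because the labels give no replicate numbers and each group has 1 library. Of 509 values of single RNAs under other settings, 475 kept their direction and side of 2-fold, 11 fell short of it, 15 came past it and 8 changed sign. Many of these could not change, since an RNA with a single transcript and no failed estimate keeps its value under several of the settings. Also counted as kept was MIAT in shNS on day 5, at -0.86 as reported and -0.00099 by its highest-mean transcript. The tally is therefore no measure of how stable the values are. By the transcript with the highest mean, TUG1 was at -1.56 adjusted on day 5 (1.08 as reported), 2.43 in shNS on day 5 and -1.33 in shNS on day 7, and MIAT in shEXOSC3 on day 5 was at 0.0036. NORAD in shEXOSC3 on day 5 was at 0.061 after rescaling to the same FPKM total and 0.018 without the 3 most abundant transcripts, and its adjusted value of day 7 was 0.11 between doxycycline libraries. MALAT1 in untreated shNS, day 7 over day 5, was at -0.049 without those 3 transcripts. Taking each RNA by its highest-mean transcript, the count past 2-fold in single tables was 1 in shNS on each day instead of 0. With a pseudocount of 0.1 FPKM it was also 1 in shNS on day 5, from MIAT at -1.02. The adjusted count of day 5, 2 as reported, was 4 with a pseudocount of 0.1, 1 with a pseudocount of 5, 1 with failed estimates left out of all tables, and 0 when the doxycycline libraries were set directly against each other. For day 7 over day 5, a pseudocount of 5 FPKM gave 0 instead of 2 in shEXOSC3 with doxycycline, 1 instead of 3 without, and 2 instead of 4 in shNS with doxycycline. In untreated shNS the count was 0 as reported, 1 with a pseudocount of 0.1, 2 with the transcript of the highest mean and 2 after rescaling to the same FPKM total. The pseudocount acts on low RNAs by construction, and the other causes were not tested. The day comparison and both treatments of failed estimates were added after the data were seen. Depth limits H19 and MEG3 most, at 4 to 36 and 0 to 4 fragments.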
